A study of Mus musculus with 6 samples.

Results

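The receptors and ligands that tune T cell activation beside the antigen receptor were followed in CD4+CD25+ regulatory T cells (Treg) of mice lacking Mbd2. The set held 10 genes: the inhibitory receptors Ctla4, Pdcd1, Lag3, Havcr2 and Btla, the costimulatory receptors Cd28 and Icos, and the surface molecules Cd86, Cd83 and Cd200. Members were the probe sets whose platform annotation gave one of these symbols and no other, which found 12 of 22626 probe sets and 9 of 12393 genes. Btla had no such probe set and was not analysed here. Of the 12 probe sets, 11 passed the filter on dim signals (a mean log2 value above 5.18 over all arrays), and they measured 8 genes. Havcr2 did not pass.

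RNA came from magnetically separated cells of MBD2-/- mice and of wild-type mice, 3 arrays each, described by the submitters as independent samples. All mice had the Balb/c background, and no treatment is given for either group. The labels do not say which part of Mbd2 the knockout allele lacks, the age or sex of the mice, or whether animals were pooled. Expression is given as log2 values from RMA, so that a difference of 1 is a doubling, and the 2 groups are called knockout and wild type.

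CD28 gives a T cell the second signal it needs beside antigen, by binding CD80 and CD86 on antigen-presenting cells. CTLA-4 binds the same ligands more tightly, removes them from the partner cell and is carried at high levels by Treg, which need it to restrain other T cells. ICOS is a relative of CD28 that supports effector Treg, while PD-1 (encoded by Pdcd1), LAG-3 and TIM-3 (encoded by Havcr2) dampen signalling after engaging their own ligands. Mbd2 binds methylated CG dinucleotides and recruits repressor complexes.

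The promoters of the 3 measured members that the RefSeq table holds among those past the filter are shown because CG dinucleotides, here in capitals, are what Mbd2 reads when they are methylated. Each window is the 250 bases before the annotated start, 5′ to 3′ on the gene's strand, in build GRCm38.p6. That of Ctla4 lies at chr1:60908775-60909024 on the plus strand, that of Pdcd1 at chr1:94052554-94052803 on the minus strand, and that of Cd200 at chr16:45409054-45409303 on the minus strand.
Ctla4: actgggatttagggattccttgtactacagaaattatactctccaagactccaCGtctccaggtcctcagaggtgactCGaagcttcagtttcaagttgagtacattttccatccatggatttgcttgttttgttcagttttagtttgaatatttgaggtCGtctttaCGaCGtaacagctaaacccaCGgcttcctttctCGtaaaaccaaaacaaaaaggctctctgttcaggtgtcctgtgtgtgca
Pdcd1: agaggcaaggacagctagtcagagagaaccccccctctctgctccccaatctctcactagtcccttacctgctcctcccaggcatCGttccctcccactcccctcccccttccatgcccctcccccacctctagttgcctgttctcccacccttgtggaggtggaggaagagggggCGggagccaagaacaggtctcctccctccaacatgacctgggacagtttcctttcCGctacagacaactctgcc
Cd200: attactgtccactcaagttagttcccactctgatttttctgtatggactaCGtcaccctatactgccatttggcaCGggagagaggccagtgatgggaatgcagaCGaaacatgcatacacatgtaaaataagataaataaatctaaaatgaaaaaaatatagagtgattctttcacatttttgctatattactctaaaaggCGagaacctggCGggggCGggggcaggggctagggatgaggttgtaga
The Ctla4 window held 7 CG dinucleotides, that of Cd200 6 and that of Pdcd1 3, against a median of 6 over 32851 windows of the same length. At least as many were found in 46.3% of windows for Ctla4, in 50.4% for Cd200 and in 71% for Pdcd1. The letters AAACA, the core of many forkhead factor sites, were searched on both strands. They occurred 2 times in the Ctla4 window, 1 time in that of Cd200 and 0 times in that of Pdcd1, and 46.4% of all windows held them. Methylation was not measured on these arrays.

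The third wild-type array was unlike all the others. Across probe sets it correlated with them at 0.749 to 0.767, while the other 5 correlated among themselves at 0.956 to 0.997. Its log2 values over all probe sets had an SD of 1.36, against 1.78 to 1.83 on the other arrays. Their median was 5.775, against 5.561 to 5.595. Among the 8190 genes tested, its value lay below all 5 others for 64.7% and above all 5 for 22.1%. Of the 8 receptor genes, it lay below for 5 and above for 0. The differences of the receptor genes are therefore given from all 6 arrays and from 5 arrays without it. Some values of other genes and lists come from 5 arrays only. The knockout was visible in the targeted gene, with Mbd2 at 5.93, 5.71 and 6.14 in knockout replicates 1 to 3, against 8.80, 8.66 and 6.93 in wild-type replicates 1 to 3 on its brighter probe set. The sources do not say whether that probe set lies in the deleted part.

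The cells expressed the defining genes of Treg, but not equally on all arrays. Foxp3, the lineage-defining transcription factor, was at 7.98, 6.62 and 8.17 in knockout cells and at 8.83, 8.74 and 6.93 in wild-type cells. Il2ra, which encodes CD25, was on its brighter probe set at 7.46, 6.49 and 7.80 in knockout cells and at 8.04, 7.91 and 7.17 in wild-type cells. Both were lowest in knockout replicate 2. In bulk RNA, fewer cells of a type and less RNA per cell cannot be told apart.

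With 6 arrays, 0 of the 8 receptor genes passed an adjusted p of 0.05 in limma in either direction, against 0.122% of all 8190 genes (10 genes higher, 0 lower). At an unadjusted p under 0.05 there was 1, Lag3, which was higher, against 3.91% of all genes in that direction, and 0 were lower, against 0.574%. Values without overlap between the groups were found for 2 of the 8, Lag3 and Cd200, both higher in knockout, against 10.8% of all genes. None of the 8 was lower without overlap, against 5.43% of all genes. The median log2 difference of the 8 genes was -0.17, and that of all genes was 0.16.

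In the 5 arrays without wild-type replicate 3, 2 of the 8 genes fell, Icos and Cd83, against 0.757% of all genes called lower. No receptor gene was called higher, against 0.818% of all genes. The groups did not overlap for 5 genes that were lower in knockout (Ctla4, Pdcd1, Cd28, Icos and Cd83), against 32.8% of all genes. The same held for 2 that were higher (Lag3 and Cd200), against 16.8%. At an unadjusted p under 0.05, 4 genes were lower, Ctla4, Pdcd1, Icos and Cd83, against 15% of all genes. There were 2 higher, Lag3 and Cd200, against 7.69%. The median of the 8 genes was -0.51, beside -0.060 for all genes.

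**Figure D1:**
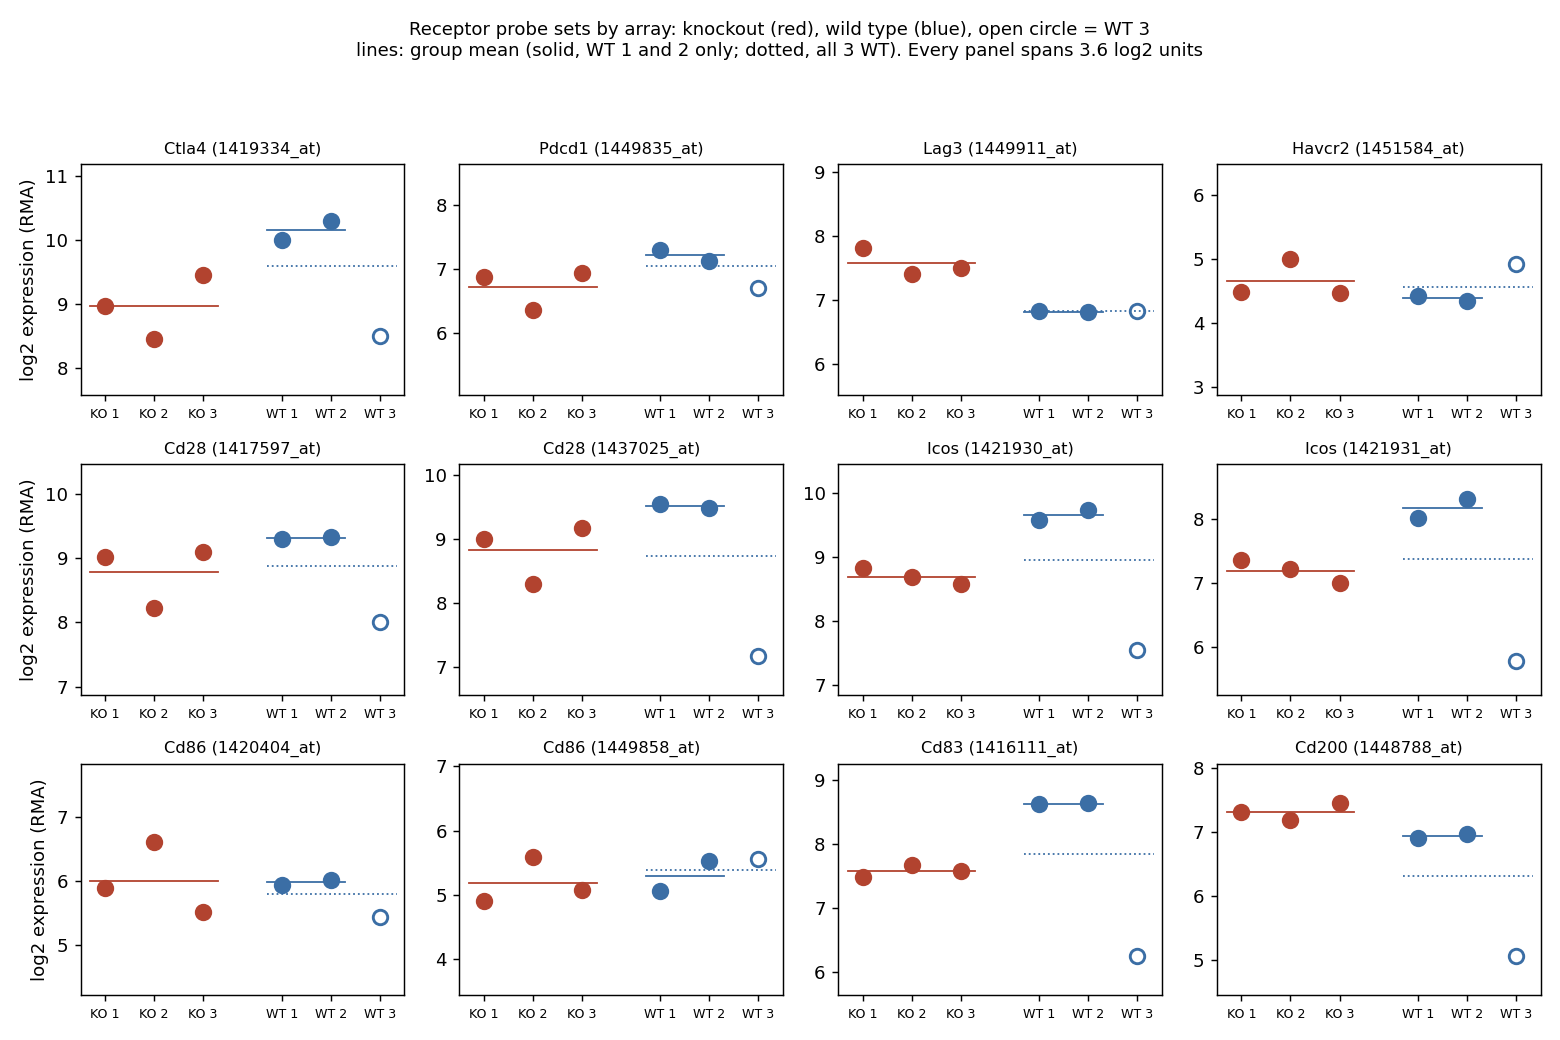
Log2 expression (vertical axis) of the 12 receptor probe sets on each array (horizontal axis), with knockout in red left of wild type in blue. The open circle is wild-type replicate 3, solid lines are means of the knockout arrays and of wild-type replicates 1 and 2, and dotted lines are means of all 3 wild-type arrays. Lag3 was at 6.81 to 6.83 on every wild-type array, while Icos and Cd83 on wild-type replicate 3 lay below all knockout arrays.

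Among the inhibitory receptors, Ctla4 had the lowest difference. Its probe set (1419334_at) was at 8.98, 8.46 and 9.46 in knockout replicates 1, 2 and 3, against 10.01, 10.30 and 8.51 in wild-type replicates 1, 2 and 3. Each knockout array lay below wild-type replicates 1 and 2, and wild-type replicate 3 lay between knockout replicates 2 and 1. Over 6 arrays the means were 8.97 ± 0.50 in knockout and 9.60 ± 0.96 in wild type (SD, n = 3 each), a log2 difference of -0.64 with an SE of 0.53 (limma adjusted p = 0.829). Without wild-type replicate 3 the difference was -1.19 with an SE of 0.29, a level 2.28-fold lower in knockout, which did not pass the threshold (limma adjusted p = 0.103). Its 95% interval ran from -1.89 to -0.48. The knockout arrays spread more than the wild-type pair, and with knockout replicate 2 also left out the gene passed, at -0.94 (limma adjusted p = 0.0146). That fit called many more probe sets in general, 1136 higher and 1401 lower, against 91 and 99 with 5 arrays.

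Pdcd1 encodes PD-1, which recruits phosphatases to the antigen receptor. Its values (1449835_at) were 6.88, 6.36 and 6.94 in knockout and 7.30, 7.13 and 6.71 in wild type. All 3 knockout arrays lay below wild-type replicates 1 and 2, and wild-type replicate 3 fell within the knockout range. The log2 difference was -0.32 with 6 arrays (SE 0.27, limma adjusted p = 0.829) and -0.49 with 5 (SE 0.19, limma adjusted p = 0.224).

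Lag3, whose product binds MHC class II and other ligands, differed in the other direction. Its probe set (1449911_at) was at 7.82, 7.41 and 7.50 in knockout cells, against 6.83, 6.81 and 6.83 in wild-type cells. The groups did not overlap, and wild-type replicate 3 lay with the other wild-type arrays, at 0.0043 relative to their mean, while all 8 genes together had their lowest mean there. The means were 7.58 ± 0.21 in knockout and 6.82 ± 0.0081 in wild type (SD, n = 3 each). The log2 difference was 0.75 with 6 arrays (SE 0.21, unadjusted p = 0.0105 and adjusted p = 0.754 in limma) and 0.76 with 5 (SE 0.14, adjusted p = 0.0633), a level 1.69-fold higher in knockout. After quantile normalization again it was 0.51 with 6 arrays (SE 0.26, unadjusted p = 0.0985 in limma). With 5 arrays it was then 0.81 (limma adjusted p = 0.0513). With knockout replicate 2 also left out Lag3 passed, at 0.84 (limma adjusted p = 0.00539). Over all probe sets, 1136 passed in that direction in the same fit, against 91 with 5 arrays. LAG-3 is also found on activated conventional T cells, NK cells and plasmacytoid dendritic cells, and the CD8 T cell and NK cell markers averaged 7.24, 8.04 and 6.96 on the knockout arrays and 6.53, 6.64 and 6.05 on the wild-type arrays. The part of such cells in the difference was not tested.

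Havcr2 (1451584_at), which encodes TIM-3, lay under the cutoff on every array, at 4.48, 5.0 and 4.47 in knockout and 4.42, 4.34 and 4.92 in wild type. Its highest values were those of knockout replicate 2 and wild-type replicate 3. In the fit without the filter its log2 difference was 0.089 (SE 0.24, limma adjusted p = 0.896) with 6 arrays and 0.27 (SE 0.18, limma adjusted p = 0.507) with 5. The values came without detection calls, so whether the gene was expressed cannot be told from them.

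The costimulatory receptor Icos was measured by 2 probe sets with similar differences. The brighter one (1421930_at) was at 8.82, 8.68 and 8.58 in knockout cells and at 9.57, 9.73 and 7.55 in wild-type cells. The dimmer one (1421931_at) was at 7.36, 7.22 and 7.0 in knockout cells and at 8.02, 8.32 and 5.79 in wild-type cells. On both, the knockout arrays lay close together, below wild-type replicates 1 and 2 and above wild-type replicate 3. With 6 arrays the differences were -0.26 and -0.18 (limma adjusted p = 0.879 and 0.928). With 5 arrays the brighter probe set was at -0.96 with an SE of 0.12, 1.94-fold lower in knockout, and passed (limma adjusted p = 0.0280). The dimmer one was at -0.97 with an SE of 0.15 and missed the threshold (limma adjusted p = 0.0506). The call on the brighter one was kept without knockout replicate 2 and lost without any other array. Its adjusted p in limma was 0.283 and 0.309 without wild-type replicates 1 and 2 in turn, and 0.0923 and 0.101 without knockout replicates 1 and 3, with differences from -1.04 to -0.87.

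Cd28 was measured by 2 probe sets that parted on wild-type replicate 3. The first (1417597_at) was at 9.03, 8.23 and 9.11 in knockout and 9.30, 9.33 and 8.0 in wild type. The second (1437025_at) was at 9.0, 8.30 and 9.17 in knockout and 9.55, 9.49 and 7.18 in wild type. Knockout replicate 2 was the lowest knockout array on both. Relative to the mean of the other wild-type arrays, wild-type replicate 3 was at -1.32 on the first and at -2.34 on the second. The 6-array differences had opposite signs, -0.091 (SE 0.45, limma adjusted p = 0.95) and 0.084 (SE 0.68, limma adjusted p = 0.971). With 5 arrays both were negative, -0.53 (SE 0.27, limma adjusted p = 0.31) and -0.70 (SE 0.26, limma adjusted p = 0.204).

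Ctla4, Cd28 and Icos follow one another on chromosome 1, in the order Cd28, Ctla4, Icos, with no other protein-coding gene between them in the RefSeq table. Their 5-array differences in that order were -0.53, -1.19 and -0.96. The 3 genes did not vary alike among the knockout arrays. Relative to the mean of the other knockout arrays, knockout replicate 2 was at -0.84 for Cd28 and at -0.75 for Ctla4, and at -0.018 for Icos.

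Cd83 encodes an immunoglobulin-family surface protein of activated dendritic cells, B cells and Treg. Its probe set (1416111_at) was at 7.49, 7.68 and 7.57 in knockout cells, against 8.62, 8.64 and 6.25 in wild-type cells. Wild-type replicates 1 and 2 lay above all knockout arrays and wild-type replicate 3 below them. The 6-array means were 7.58 ± 0.09 in knockout and 7.84 ± 1.37 in wild type (SD, n = 3 each), a log2 difference of -0.26 (SE 0.66, limma adjusted p = 0.89). Without wild-type replicate 3 it fell by 1.05, 2.07-fold lower in knockout, with an SE of 0.10 and a 95% interval from -1.30 to -0.81 (limma adjusted p = 0.0142). The call was lost without wild-type replicate 1 or 2 (limma adjusted p = 0.255 and 0.231) and without knockout replicate 1 or 3 (limma adjusted p = 0.0754 and 0.0718), while the differences stayed between -1.10 and -1.01.

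Cd200 encodes a ligand that restrains cells carrying its receptor CD200R. Its probe set (1448788_at) was at 7.31, 7.18 and 7.45 in knockout cells and at 6.91, 6.97 and 5.07 in wild-type cells. All knockout arrays lay above all wild-type arrays, and wild-type replicate 3 was at -1.86 relative to the mean of the other wild-type arrays. The difference was 1.0 with 6 arrays (SE 0.53, limma adjusted p = 0.829) and 0.38 with 5 (SE 0.11, limma adjusted p = 0.146). With knockout replicate 2 also left out it passed, at 0.44 (limma adjusted p = 0.0163), in the fit that called 1136 probe sets higher, against 91 with 5 arrays.

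Cd86, the ligand of CD28 and CTLA-4 on antigen-presenting cells, was dim and had 2 probe sets. The brighter one (1420404_at) was at 5.90, 6.60 and 5.52 in knockout and 5.94, 6.02 and 5.45 in wild type. The dimmer one (1449858_at) was at 4.89, 5.58 and 5.07 in knockout and 5.05, 5.52 and 5.56 in wild type. The groups overlapped on both, and knockout replicate 2 was the highest array of all on both. With 5 arrays the differences were 0.030 (95% interval -0.71 to 0.78, limma adjusted p = 0.961) and -0.11 (95% interval -0.70 to 0.49, limma adjusted p = 0.82). With 6 arrays they were 0.21 and -0.20.

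**Figure D2:**
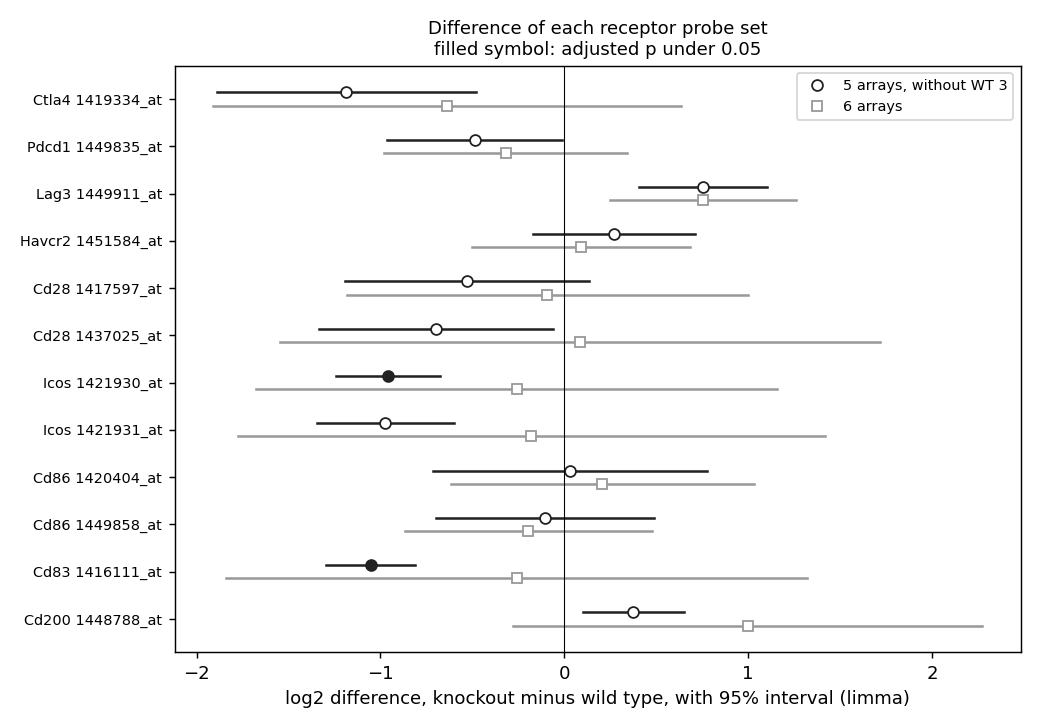
Log2 difference, knockout minus wild type (horizontal axis), of each receptor probe set with its 95% interval from limma, for 5 arrays without wild-type replicate 3 (black circles) and for 6 arrays (grey squares). Filled symbols passed an adjusted p of 0.05, which held for Icos at -0.96 and Cd83 at -1.05 with 5 arrays and for no probe set with 6.

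Markers of other cell types and of T cells moved with the groups. With 5 arrays, 4905 of all 8190 genes were lower and 3285 higher. Of all genes, 0.757% were called lower and 0.818% higher. An unadjusted p under 0.05 held for 15% lower and 7.69% higher. Values without overlap held for 32.8% lower and 16.8% higher. In the 5-array comparison, 11 of 11 tested T cell genes were lower in knockout, with a median of -0.54, 0 past the threshold and 6 at an unadjusted p under 0.05. Of 13 Treg genes 11 were lower, with a median of -0.74, and 2 fell, Nrp1 and Itgae. All 15 granulocyte genes were higher, with a median of 2.95 and 10 called. All 11 myeloid and dendritic cell genes (median 1.19, with Lyz2 and Csf1r called) and all 10 B cell genes (median 1.10, with Spib called) were higher as well. So were all 11 CD8 T cell and NK cell genes (median 0.54, with Eomes and Tyrobp called). Only 4 of these 11 had groups without overlap, against 16.8% of all genes, and 4 had an unadjusted p under 0.05, against 7.69%. Their differences ran from 0.10 for Cd8b1 to 2.80 for Tyrobp, and the next largest was 1.22, for Gzmk. With 6 arrays 9 of 11 T cell genes were lower, beside 2921 of all 8190 genes, with a median of -0.24 and 0 called. The granulocyte median was then 2.74, with 5 of 15 genes called (Camp, Ngp, Ltf, Lcn2 and Prg2), against 0.122% of all genes.

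The same lists differed among the knockout arrays. The mean log2 value of the myeloid and dendritic cell genes was 7.26, 8.23 and 7.25 in knockout replicates 1, 2 and 3, and 5.77, 5.97 and 6.26 in the wild-type arrays. That of the T cell genes was 10.14, 9.53 and 10.14 in knockout and 10.50, 10.46 and 9.42 in wild type. Knockout replicate 2 had the highest myeloid and the lowest T cell mean of the knockout arrays. It was highest for Cd86 and lowest among the knockout arrays for Ctla4, Pdcd1 and Cd28. It was also the lowest of them for Lag3 and Cd200, which were higher in knockout, at -0.25 and -0.19 relative to the mean of the other knockout arrays. Icos and Cd83 on that array were at -0.018 and 0.14 relative to the mean of the other knockout arrays. The part of these cell types in the differences of the receptors was not tested.

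**Figure D3:**
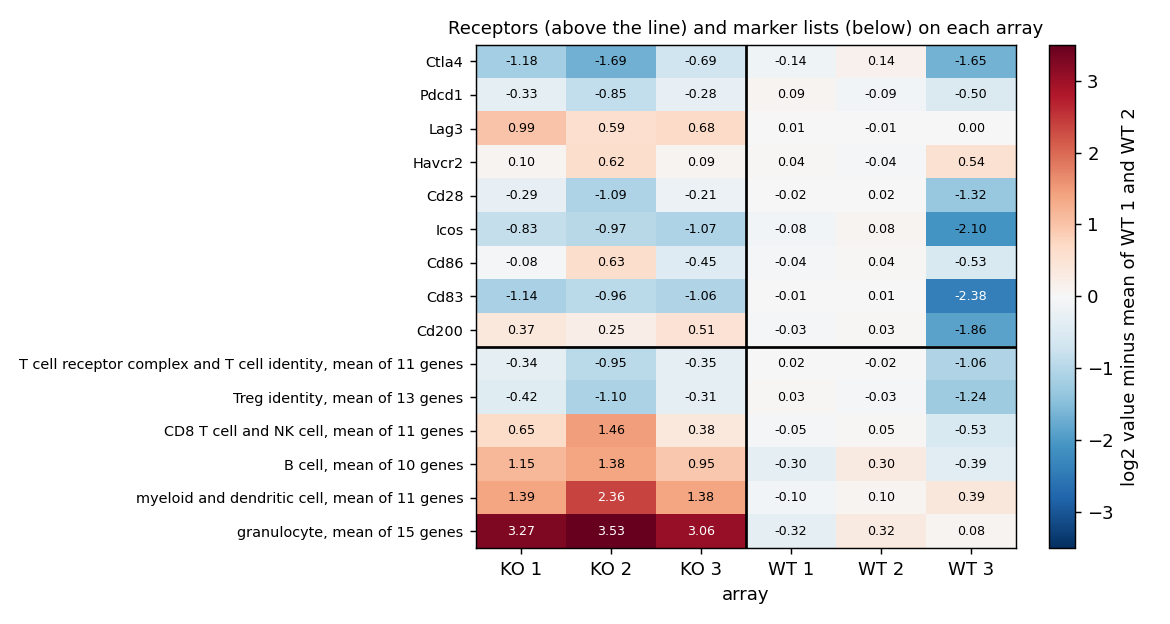
Log2 value of each receptor gene (rows above the line) and mean log2 value of each marker list (rows below) on each array, minus the mean of wild-type replicates 1 and 2, with knockout arrays on the left. Blue is lower and red higher, up to 3.5 in either direction. Ctla4 at -1.69 and the T cell list at -0.95 were lowest among the knockout arrays on replicate 2, where the myeloid list was at 2.36, while Icos lay between -0.83 and -1.07 on all 3.

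When each array was centred on 4 genes of the T cell receptor complex (Cd3d, Cd3e, Cd3g and Cd247), the differences changed. These genes were on average 0.57 lower in knockout with 5 arrays, and centring on them moved the median of all genes to 0.51, against -0.060 before. Icos was then at -0.39 (limma adjusted p = 0.245), Cd83 at -0.48 (adjusted p = 0.198) and Ctla4 at -0.62 (adjusted p = 0.135), all still below 0 and none past the threshold. Pdcd1 and Cd28 turned to 0.084 and 0.040. Lag3 passed at 1.33 (limma adjusted p = 0.0375), and Cd200 was at 0.95 (adjusted p = 0.0849). Over all probe sets, 143 were then called higher and 7 lower, against 91 and 99 before. With 6 arrays, this centring called 0 receptor genes.

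The other receptors of the family, 12 tested genes, had a 5-array median of -0.55, with 8 lower and 4 higher. Of all 8190 genes, 4905 were lower and 3285 higher. Cd200r1, the receptor of CD200, was the 1 gene that passed, against 0.757% of all genes called lower. It was at 5.82, 5.65 and 5.87 in knockout and 6.58, 6.43 and 6.13 in wild type, so that the groups did not overlap on all 6 arrays. It fell by 0.72 with 5 arrays (limma adjusted p = 0.0484), and was at -0.60 with 6 (limma adjusted p = 0.829). Centred on the T cell receptor genes it was at -0.15. The call was lost without any of the other arrays except knockout replicate 2, with adjusted p values in limma of 0.42 and 0.344 without wild-type replicates 1 and 2 and of 0.14 and 0.12 without knockout replicates 1 and 3. Cd200 and its receptor gene thus differed in opposite directions on these arrays. Cd160, a receptor that shares the ligand HVEM with BTLA, was at 0.55 on its brightest probe set (limma adjusted p = 0.0529) and did not overlap on 6 arrays. Slamf6, a receptor that binds itself on neighbouring cells, was at -0.97 (limma adjusted p = 0.053). With 6 arrays Cd160 was at 0.73 and Slamf6 at -0.32. The 6-array median was 0.0068, with 6 lower and 6 higher and none of the 12 called. An unadjusted p under 0.05 held for 2 higher, against 3.91% of all genes, and for 1 lower, against 0.574%.

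The ligands, 9 tested genes, had a 5-array median of -0.27, with 5 lower and 4 higher and none called. Of all 8190 genes, 4905 were lower and 3285 higher. An unadjusted p under 0.05 in limma held for 3 lower ligands, against 15% of all genes, and for 1 higher, against 7.69%. Pdcd1lg2, which encodes the PD-1 ligand PD-L2, was at -0.70 (limma adjusted p = 0.0597), and Cd48, a ligand of CD2 and CD244, was at -0.44 (adjusted p = 0.095). Lgals3, which encodes galectin-3, a lectin abundant in macrophages that has been described as a LAG-3 ligand, was at 9.06, 10.12 and 8.89 in knockout and 7.30, 7.37 and 5.59 in wild type. Its difference was 2.02 (limma adjusted p = 0.0609) and it was highest in knockout replicate 2. With 6 arrays 8 ligands were higher and 1 lower, with a median of 0.23, beside 0.16 for all genes. Pdcd1lg2 was then at -0.27, Cd48 at 0.33 and Lgals3 at 2.60. No ligand was called with 6 arrays. Only Lgals3, which was higher, had an unadjusted p under 0.05, against 3.91% of all genes.

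The proximal signalling genes, 17 tested, had a 5-array median of -0.20, with 13 lower and 4 higher, beside 4905 lower and 3285 higher of all 8190 genes. None was called. An unadjusted p under 0.05 in limma held for 5 lower, against 15% of all genes, and for 1 higher, against 7.69%. The smallest p belonged to Sh2d1a, which encodes the adaptor SAP used by SLAMF receptors, at -0.79 (limma adjusted p = 0.101). Ptpn11, which encodes the phosphatase SHP-2 recruited by PD-1, was at -0.34 (adjusted p = 0.113). Lrba, whose product protects CTLA-4 from degradation in lysosomes, was at -0.55 on its brightest probe set (adjusted p = 0.146). With 6 arrays the median was -0.043, with 9 lower and 8 higher. Sh2d1a was then at -0.044, Ptpn11 at 0.35 and Lrba at -0.22. In that fit 0 were called and 0 had an unadjusted p under 0.05, against 3.91% of all genes higher and 0.574% lower.

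Likeness of pattern was measured as the root mean square difference between log2 values of 2 genes over the 6 arrays, each centred on its own mean. Among the receptors the closest pair was Icos and Cd83, at 0.149. Over all tested genes the nearest to Ctla4 were Lrig1 (0.13), Rgs16 (0.174) and the TNF receptor gene Tnfrsf18 (0.179), which encodes the Treg protein GITR. The nearest to Icos were the glucose transporter gene Slc2a3 (0.102), the integrin gene Itgae (0.112) and Rassf2 (0.121). Slc2a3 was also among the 3 nearest to Cd83 (0.119), with Rbl2 (0.0972) and Lpxn (0.117). In the 5-array comparison Slc2a3 was at -0.82, Rbl2 at -0.91 and Lpxn at -1.15. Nearest genes were chosen on these same values, so differences close to those of the receptor follow from the choice.

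The nearest to Cd28 were Smc6 (0.0599), Cdk5rap1 (0.0661) and Cd6 (0.0676), another surface receptor of T cells, and those nearest to Pdcd1 were Ldb1 (0.0347), Acvr1b (0.0482) and Cluap1 (0.0519). Lag3 was nearest to Emp1 (0.0593), Lrr1 (0.0907) and Alpl (0.107), with 5-array differences, close to that of Lag3 by choice, of 0.73, 0.63 and 0.72. Cd200 was nearest to St13 (0.0579), Shcbp1 (0.0592) and Eif4g3 (0.0617). Cd86 was nearest to Ly96 (0.0954), Rnf128 (0.0983) and Lgals3bp (0.122), and Ly96 encodes a lipopolysaccharide co-receptor of myeloid cells. Wild-type replicate 3 weighs heavily in this measure wherever it lies far from the other arrays.

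**Figure D4:**
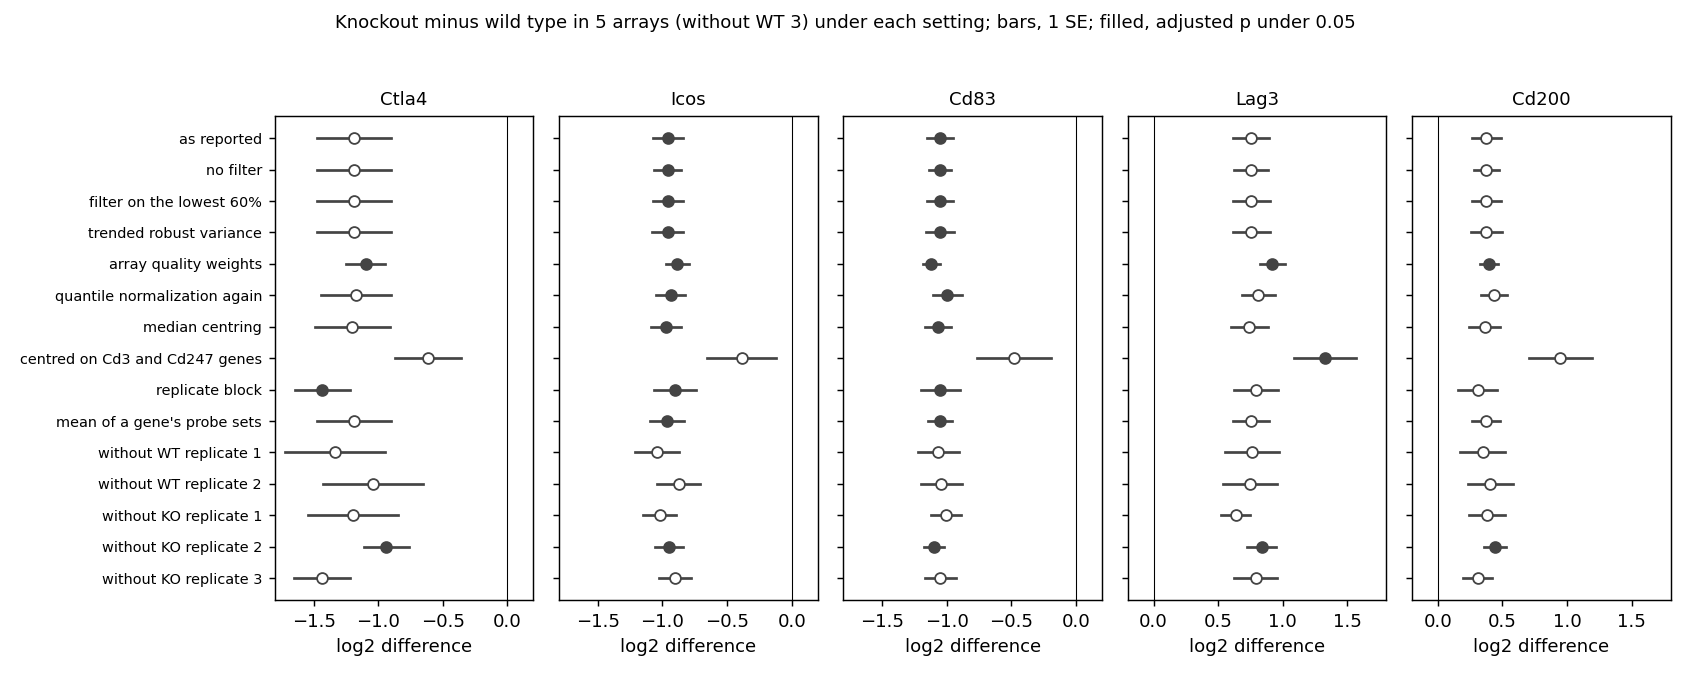
Log2 difference, knockout minus wild type, of Ctla4, Icos, Cd83, Lag3 and Cd200 (horizontal axes) in 5 arrays without wild-type replicate 3 under each setting (vertical axis), with bars of 1 SE and filled points where the adjusted p was under 0.05. Each gene kept its sign under every setting shown, and centring on the T cell receptor genes moved Icos to -0.39, Cd83 to -0.48 and Lag3 to 1.33.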

How the data were processed

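The authors deposited one log2 value per probe set and array, made with RMA per the submitters' processing notes. The RMA software and the arrays it was run on are not stated in the labels. Arrays give no read depth, and their number limits the precision. Of 22690 probe sets, 64 controls were left out. Symbols came from the platform annotation, updated by gene ID through RefSeq (GRCm38.p6).

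Probe sets in the lowest 40% by 6-array mean (up to 5.18) were not tested. The other 13575 entered limma 3.58.1 (R 4.3.3; lmFit and eBayes with group as the only term), knockout minus wild type, with 6 and with 5 arrays. P-values were adjusted by Benjamini-Hochberg over all 13575, at a threshold of 0.05. The fit was tested on simulated normal data, with noise scaled to the 5 arrays without wild-type replicate 3. An array unlike the others was not simulated. Each gene was read from its brightest probe set by mean. Named genes were all members, Mbd2, Foxp3, the called genes and the 3 with the smallest 5-array p of the lists of receptors, ligands and signalling, and the 3 genes nearest to each member. Il2ra, the genes used for centring and the called marker genes were named after their values were seen. Members and lists were chosen with earlier results of these data known. Alternatives are in the closing section. Figures used matplotlib 3.10.9.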

Additional observations from a re-analysis of the deposited data

How the results depend on the processing

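Under the settings tried, the 6-array fit called 0 receptor genes in either direction with 2 exceptions. Array quality weights, which gave wild-type replicate 3 a weight of 0.0289, called 2 higher (Lag3, Cd200) and 3 lower (Ctla4, Icos, Cd83). Over all probe sets the weights called 971 higher and 1352 lower, against 14 and 0 without them. Leaving out each array in turn gave 0 higher and 0 to 2 lower, the 2 being those without wild-type replicate 3. In those fits Icos ran from -0.96 to 0.13, Cd83 from -1.05 to 0.14, Cd28 from -0.53 to 0.19, Havcr2 from -0.085 to 0.27 and Cd86 from -0.090 to 0.45. Cd86 was at -0.19 with weights, and Cd28 at 0.14 when centred on the T cell receptor genes. After quantile normalization again, Ctla4 was at -1.01, Icos at -0.58, Pdcd1 at -0.47, Cd28 at -0.44 and Cd83 at -0.31. Lag3 was then at 0.51, Cd200 at 1.11, Cd86 at 0.34 and Havcr2 at 0.20.

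In the 5-array fit, where 2 were called lower and 0 higher, weights called 2 higher and 4 lower (Pdcd1 also). Over all probe sets the weights called 1530 higher and 2253 lower, against 91 and 99 without them. Centring on the T cell receptor genes called 1 higher and 0 lower, with Pdcd1 at 0.084 and Cd28 at 0.040. Over all probe sets it called 143 higher and 7 lower. An adjusted p under 0.1 called 1 higher (Lag3), beside 301 probe sets higher and 478 lower over all. Leaving out each array gave 0 to 2 higher and 0 to 3 lower. Icos (-1.04 to -0.87) and Cd83 (-1.10 to -1.01) passed only without knockout replicate 2, and Cd200r1 likewise. The fit without that array called 1136 probe sets higher and 1401 lower over all, against 91 and 99 with 5 arrays. Fewer arrays leave fewer degrees of freedom, and without wild-type replicate 1 or 2 the lone wild-type array is assumed to vary like the knockout arrays. Cd86 ran from -0.27 to 0.27, and was at -0.13 with weights and -0.038 as the mean of its probe sets. Cd200r1 also lost its call after quantile normalization again (adjusted p = 0.0534). The causes were not tested.

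The labels do not say whether the replicate numbers pair the arrays. Deviations from the group means of arrays with the same number correlated at 0.15, -0.09 and -0.14. Wild-type replicate 3 enters the wild-type mean, so these values cannot show whether the arrays were paired. With the number as a replicate block, 6 arrays gave 0 calls. Without wild-type replicate 3, knockout replicate 3 stood alone in its block and added nothing to the difference. The remaining pairs gave 3 lower (Ctla4 at -1.43, with Icos and Cd83) and 0 higher. Over all probe sets that fit called 399 higher and 162 lower. The fit without blocks that left out wild-type and knockout replicate 3 gave the same difference for Ctla4, -1.43, and called 0 receptor genes.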
